A study of Mus musculus with 6 samples.

Results

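Solute carriers are a large family of membrane transport proteins, and the symbols of most mouse members begin with Slc. The rule took the protein-coding genes of the deposited table whose symbol begins with Slc and whose mean over all 6 libraries was at least 5 CPM (read counts scaled to the size of the library). Of 17985 genes in the table, 287 were protein-coding Slc genes and 165 of these met the level. The members were thus chosen by their measured mean over both groups, so levels are given as a description, while the difference between groups was not used. Among the 165 members, 162 had a mean of at least 5 CPM in each group, Slc5a11 and Slc7a11 had it in Ctrl only, and Slc35f3 in cKO only.

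The cells were thymic iNKT1 cells, the T-bet-expressing subset of invariant natural killer T cells, from mice on a C57BL/6 background that received no treatment. Both groups carried a Cre transgene driven by Tbx21 (Tbx21CreTg) and the Cre-dependent yellow fluorescent protein reporter Rosa26-LSL-YFP+/+. The control group (Ctrl, 3 libraries) carried nothing further, and the knockout group (cKO, 3 libraries) also carried Tgfbr2F/F, floxed alleles of a TGF-beta receptor subunit. Deletion therefore depends on Cre made in cells that express Tbx21, and the controls carry the same Cre. The labels give no age or sex of the mice and do not say whether the libraries came from separate animals. The p-values therefore set the difference between groups against the spread of these libraries. In fits with the replicate number as a block, it is the spread left after shifts shared by same-numbered libraries.

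Solute carriers move amino acids, sugars, nucleosides, vitamins, ions and metals across the plasma membrane, and nucleotide sugars or metabolites across the membranes of the Golgi apparatus, lysosomes and mitochondria. T cells use them to take up glucose, glutamine and essential amino acids, and Slc2a1, Slc1a5 and the pair Slc7a5 and Slc3a2 are known for their induction when T cells are activated. Most carriers work without ATP hydrolysis, unlike ABC transporters, and several need a partner subunit to reach the membrane. Symbol and function do not always match: Slc9a3r1 encodes a scaffold protein, Slc4a1ap an adaptor protein and Slc7a6os a protein of the opposite strand gene of Slc7a6, and none of these 3 is a carrier. They were kept because the rule names them.

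Libraries held between 28832779 and 68092478 reads, and a single read stood for 0.0147 to 0.0347 CPM. Both replicate 3 libraries stood apart from the other 4: they listed 4406 (Ctrl) and 4590 (cKO) genes at 0, against 0 to 5 in the others. Tgfbr2 was at 425 to 461 CPM in Ctrl and at 258 to 290 CPM in cKO, over the whole gene. The 9 markers of iNKT1 cells summed to between 7685 and 9746 CPM in Ctrl and between 8151 and 11350 CPM in cKO, and none was at 0. Their median log2 fold change was 0.27, but Cd3e (-0.20) and Trac (-0.062) were lower in cKO and Zbtb16 hardly differed (-0.00068). In limma with the block, Il2rb alone was called, higher in cKO (0.34, adjusted p 0.0166). Klrb1c was at 566, 180 and 703 CPM across the Ctrl replicates and 640, 870 and 1021 CPM across the cKO replicates. The sums therefore do not show that the groups were matched in these markers. Of 6 markers each, 4 B cell genes summed to at most 16.1 CPM in any library, 3 myeloid genes to at most 8.56, 4 double-positive thymocyte genes to at most 22.3 and 1 erythroid gene to at most 4.13. The 3 listed epithelial and stromal genes summed to 28.7 to 41.1 CPM in Ctrl and 51.8 to 71.1 in cKO, and Pecam1, which T cells can also express, made up most of this (26.7 ± 3.80 CPM in Ctrl and 57.0 ± 8.09 in cKO, SD, n = 3 each). Its part in the results below was not tested. In libraries of pooled cells, fewer cells that express a gene and less RNA per cell cannot be told apart.

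Most differences in transcript levels of solute carriers between cKO and Ctrl were small, and the number of members called depended on the fit. Without the replicate number as a block, no member passed a limma adjusted p of 0.05, against 104 of 15691 tested genes or 0.663%, and edgeR without the block called 0 members. At an unadjusted p under 0.05 in limma without the block there were 17 members, or 10.3%, against 6.02% of tested genes. That share includes genes from 1 CPM upward and is not matched to the members in level. With the replicate number as a block, which takes out what same-numbered libraries share, 5 members passed. Slc2a3 rose, and Slc16a10, Slc25a4, Slc26a11 and Slco3a1 fell. This is 3.03% of the members, beside 2.87% of all tested genes (1.24% higher and 1.64% lower) and 3.99% of the genes that, like the members, had a mean of 5 CPM or more. The calls of this fit rest on taking the replicate numbers as pairs, and calls of other fits without the block are given further below. Deviations from the group means correlated at 0.687 between both replicate 2 libraries, but at 0.718 between Ctrl replicate 2 and cKO replicate 1. Numbers 1 and 2 were therefore not told apart by this measure. Changes were small: 11 members, or 6.67%, had a log2 fold change of at least 0.5 in size against 5.75% of tested genes, and only Slc16a10 reached 1, against 1.36% of tested genes. These 2 shares of tested genes are not matched in level, as they include genes from 1 CPM upward. At the members' level, the median size of the log2 fold change was 0.138 for members and 0.118 over 10141 tested genes.

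**Figure D1:**
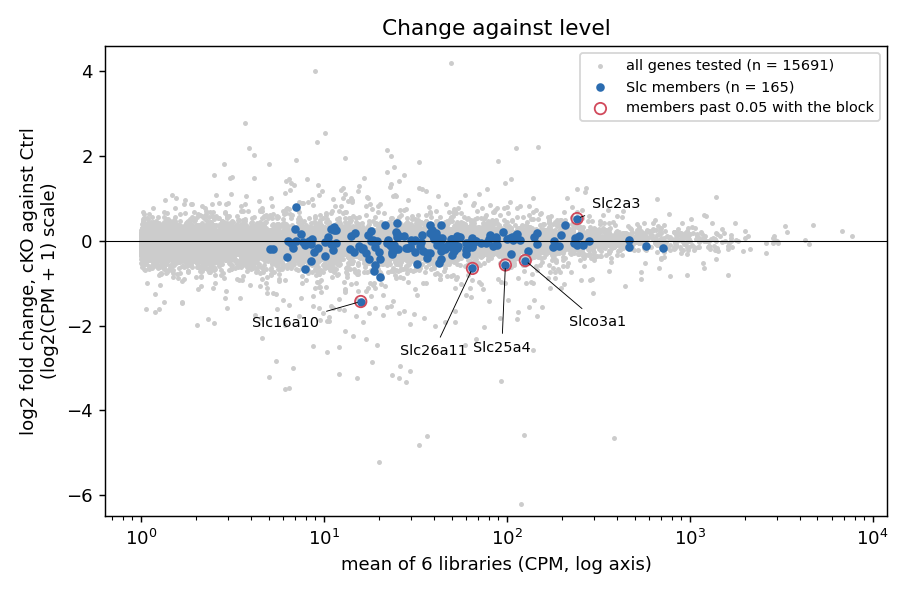
Log2 fold change of cKO against Ctrl on the log2(CPM + 1) scale (vertical axis) against the mean CPM of the 6 libraries (horizontal log axis), for the 15691 tested genes (grey) and the 165 members (blue). Red rings mark the 5 members past an adjusted p of 0.05 with the replicate block, and Slc16a10 is the member farthest from 0, at -1.43.

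Slc16a10 encodes TAT1, a carrier of aromatic amino acids (chromosome 10, 40033535 to 40142254, minus strand, positions as deposited, mm10 per the submitters' processing notes). It was at 20.0, 24.4 and 26.3 CPM across Ctrl replicates 1, 2 and 3, against 6.07, 7.35 and 11.5 CPM across the same cKO replicates. The groups did not overlap, and cKO replicate 3 was the highest cKO library. The mean fell from 23.6 ± 3.24 CPM in Ctrl to 8.32 ± 2.85 in cKO (SD, n = 3 each), which is 35.3% of the Ctrl mean; errors of means below are the SD over 3 libraries likewise. On the log2(CPM + 1) scale the change was -1.43. Its limma adjusted p was 0.00199 with the block (standard error 0.161) and 0.0795 without it (standard error 0.243). In replicates 1 and 2 alone, without the block, it was -1.59 with an adjusted p of 0.00566.

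As the member with the largest change, Slc16a10 is shown with the 250 bases before its annotated start in RefSeq (GRCm38.p6, minus strand, chr10:40142255-40142504), where capitals mark CCAAT boxes and GC boxes on either strand.

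Slc16a10: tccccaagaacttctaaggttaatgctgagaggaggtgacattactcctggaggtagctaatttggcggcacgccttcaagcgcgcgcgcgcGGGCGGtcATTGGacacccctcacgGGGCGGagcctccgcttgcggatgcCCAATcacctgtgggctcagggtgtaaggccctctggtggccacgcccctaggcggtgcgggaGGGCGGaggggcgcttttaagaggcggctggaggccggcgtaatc

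The CCAAT box, bound by NF-Y, was searched as CCAAT on both strands and matched 2 times. The GC box, bound by Sp1 and related factors, was searched as GGGCGG on both strands and matched 3 times. SMAD proteins, which act downstream of TGF-beta receptors, bind CAGAC and the palindrome GTCTAGAC, and these letters held 0 matches of either on both strands. No match in this window overlaps another. Among 32851 RefSeq windows of the same length, 33.8% held CCAAT, 32.7% GGGCGG, 42.2% CAGAC and 0.167% GTCTAGAC on either strand. Of the 165 windows that belong to 125 of the members, 56 held CCAAT, 109 GGGCGG, 73 CAGAC and 0 GTCTAGAC. Member windows were richer in G and C (median 60.8%, against 52.4% over all windows), and the part of this in the motif counts was not tested.

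Slc2a3 encodes the glucose transporter GLUT3 (chromosome 6, 122727809 to 122801640, minus strand). It was at 206, 215 and 177 CPM across Ctrl replicates 1, 2 and 3, against 285, 299 and 274 CPM across the same cKO replicates. All cKO libraries were above all Ctrl libraries. The mean rose from 199 ± 19.6 to 286 ± 12.8 CPM (SD, n = 3 each), or 144% of the Ctrl level. The change of 0.53 on the log2(CPM + 1) scale had a standard error of 0.0777 and an adjusted p of 0.00813 in limma with the block, and 0.112 without it. Replicates 1 and 2 alone gave 0.47 and 0.0169 without the block. Slc2a1 encodes GLUT1, the other main glucose transporter of T cells, and was at 108 ± 14.99 CPM in Ctrl and 121 ± 18.3 in cKO (log2 fold change 0.16, adjusted p 0.525 with the block), with overlapping groups. Per kilobase of exon, Slc2a3 stood at 0.899 ± 0.0846 times the level of Slc2a1 in Ctrl and 1.16 ± 0.180 times in cKO (SD, n = 3 each), and the ratio was higher in cKO in each same-numbered pair (0.806 and 0.972, 0.973 and 1.33, 0.917 and 1.19).

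Slc25a4 encodes ANT1, a mitochondrial carrier that exchanges ADP for ATP (chromosome 8, 46206797 to 46211284, minus strand). It was at 125, 107 and 121 CPM across Ctrl replicates 1, 2 and 3, against 81.9, 73.1 and 82.0 CPM across the same cKO replicates, without overlap. The mean fell from 118 ± 9.45 to 79.0 ± 5.09 CPM, a log2 difference of -0.57 (standard error 0.0840 with the block). In limma its adjusted p was 0.00810 with the block and 0.0857 without it. Its 3 same-numbered differences, -0.61, -0.55 and -0.55, lay close together. The paralog Slc25a5, which encodes ANT2, had the highest level per kilobase of exon of all members. It was at 598 ± 58.2 CPM in Ctrl and 555 ± 84.1 in cKO (log2 fold change -0.11, adjusted p 0.623 with the block). Per kilobase of exon, Slc25a4 stood at 0.138 ± 0.0129 times the level of Slc25a5 in Ctrl and 0.101 ± 0.0146 times in cKO.

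Slc26a11 encodes an anion transporter (chromosome 11, 119355557 to 119381079, plus strand). Levels were 82.9, 84.4 and 69.9 CPM in Ctrl replicates 1 to 3 and 59.0, 57.3 and 36.5 CPM in cKO, and both replicate 3 libraries were the lowest of their group. The mean fell from 79.1 ± 7.97 to 50.9 ± 12.5 CPM (SD, n = 3 each), without overlap of the groups. The log2 fold change was -0.65 with a limma adjusted p of 0.0177 with the block and 0.489 without it. Within replicates 1 and 2 it was -0.52 with an adjusted p of 0.0260 without the block.

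Slco3a1, a member of the organic anion transporter branch (chromosome 7, 74275419 to 74554780, minus strand), was at 185, 153 and 104 CPM across Ctrl replicates 1, 2 and 3, against 130.2, 99.5 and 86.1 CPM across the same cKO replicates. Ctrl libraries alone ran from 104 to 185 CPM and the groups overlapped, but cKO was lower in each same-numbered pair (log2 differences -0.51, -0.62 and -0.27). The log2 fold change was -0.46, with a limma adjusted p of 0.0403 with the block and 0.99998 without it (unadjusted p 0.0962). Scaling with TMM factors together with the block left it short of the threshold, at an adjusted p of 0.0759.

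**Figure D2:**
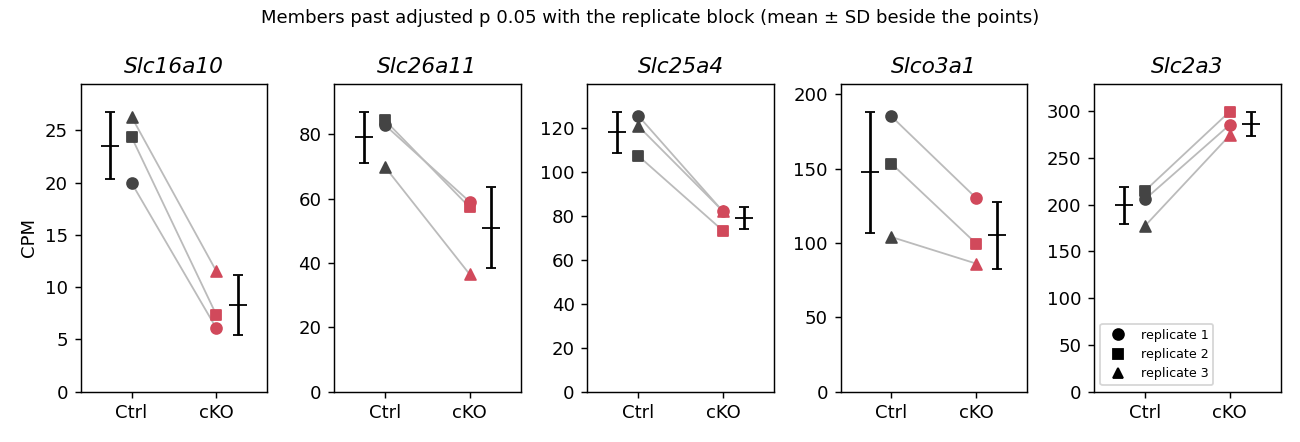
CPM (vertical axes, each from 0) of the 5 members past an adjusted p of 0.05 with the replicate block, in Ctrl (grey) and cKO (red), where grey lines join same-numbered libraries, symbols give the replicate, and bars beside the points are mean ± SD of 3 libraries. Slc2a3 is higher and the other 4 are lower in cKO in each pair, and the groups overlap for Slco3a1 alone.

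These 5 members belong to 5 different transport classes. In edgeR's quasi-likelihood test with the block on the reads recovered from the CPM values, 7 members passed (4.24%, against 2.99% of tested genes). Slco3a1 was not among them, and Slc28a2, Slc25a38 and Slc41a2 were. DESeq2 without the block called 11 members (6.67%, against 3.52%), among them Slc2a3, Slc16a10, Slc25a4 and Slc26a11. Replicates 1 and 2 alone, without the block, gave 5 members (3.03%, against 1.85%), namely these 4 and Slc28a2. The shares of tested genes in these fits include genes from 1 CPM upward and are not matched to the members in level. In limma with the block, the share was 2.87% of all tested genes but 3.99% of genes at the members' level. A higher share of members in these fits is therefore not a comparison with genes of like level. In the authors' deposited table no member had an adjusted p under 0.05, and the smallest was 0.140, for Slc26a11.

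Groups did not overlap for 32 members or 19.4%, 12 higher and 20 lower in cKO. Over all tested genes the share was 11.0% (3.89% higher and 7.10% lower), and over the 10141 genes that reach the same mean of 5 CPM it was 14.6%. Differences among these could be small, as for Slc35f2 at 25.02 ± 0.595 CPM in Ctrl and 23.2 ± 1.06 in cKO (log2 fold change -0.11). Among all members, 104 (63.0%) were lower and 61 higher in cKO by log2 fold change, with a median of -0.062 beside -0.038 over all tested genes. Of all tested genes 59.0% were lower, and likewise 59.0% of the 10141 at the members' level, so the excess was slight. Without replicate 3 the median of the members was -0.013, beside -0.020 over all tested genes. TMM scaling gave 88 lower (53.3%) and 77 higher members and a median of -0.019. Over all tested genes 51.8% were then lower with a median of -0.0077, and over the 10141 genes 48.8% with a median of 0.0055. The class counts below, with and without TMM scaling, are to be read against these shares.

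**Figure D3:**
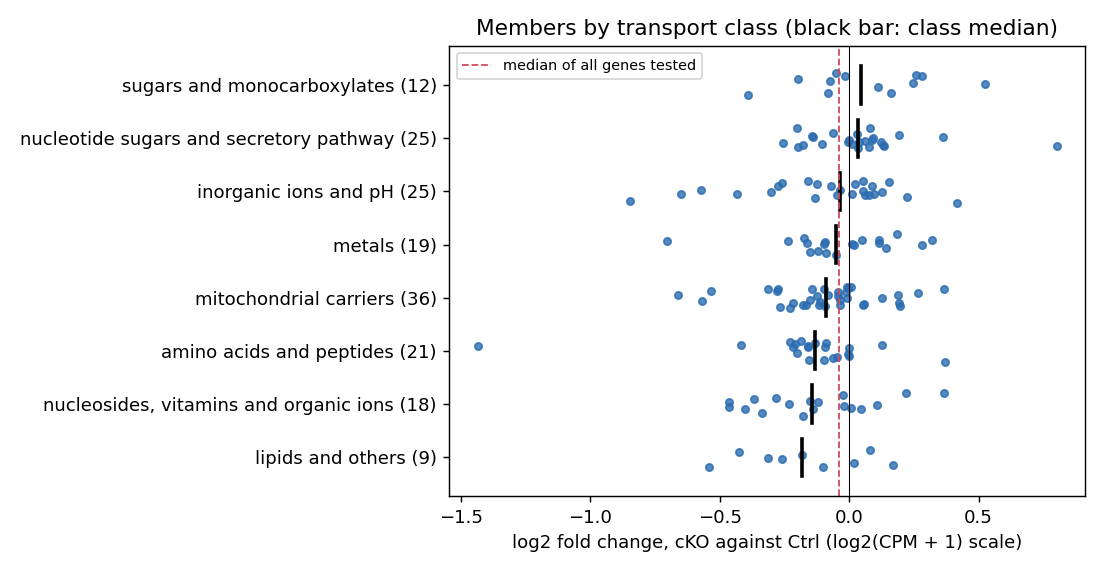
Log2 fold change of cKO against Ctrl for each of the 165 members (points) by transport class, with the number of members in brackets and the class median as a black bar. The dashed line is the median of all tested genes, -0.038, and class medians lie between -0.18 and 0.048.

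Amino acid and peptide carriers had 21 members, including Slc7a6os, and cKO was lower for 19 of them (median log2 fold change -0.13). None passed without the block and Slc16a10 alone passed with it. Under TMM scaling 16 were lower, with a median of -0.091. Without replicate 3, 14 of 21 were lower and the median was -0.011. Slc1a5, which encodes the glutamine carrier ASCT2, ranked 3 among the members per kilobase of exon and was at 493 ± 41.7 CPM in Ctrl and 443 ± 25.4 in cKO (log2 fold change -0.16, adjusted p 0.508 with the block). Groups overlapped for it.

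Slc7a5 encodes LAT1, the carrier of large neutral amino acids. It was at 44.3, 52.3 and 54.3 CPM across Ctrl replicates 1, 2 and 3, against 35.5, 39.9 and 36.4 CPM across the same cKO replicates, with every cKO library below every Ctrl library. Its log2 fold change of -0.42 did not pass in limma with the block (adjusted p 0.101) or without it (0.376), whereas DESeq2 gave an adjusted p of 0.0484. Its heavy chain partner Slc3a2 (CD98) was at 269 ± 33.1 CPM in Ctrl and 252 ± 7.28 in cKO, with overlapping groups. Slc7a6, another light chain of Slc3a2, was at 47.5 ± 5.81 and 40.5 ± 6.07 CPM.

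The sodium-coupled neutral amino acid carriers Slc38a1 and Slc38a2 were at 237 ± 16.3 and 189 ± 24.5 CPM in Ctrl and at 227 ± 16.1 and 208 ± 39.6 CPM in cKO (adjusted p with the block 0.831 and 0.743). Slc38a9, the lysosomal arginine sensor of the mTORC1 pathway, was at 22.3 ± 1.77 and 21.9 ± 4.92 CPM. Slc15a4, a lysosomal carrier of histidine and peptides, was at 37.6, 30.5 and 30.9 CPM across Ctrl replicates 1, 2 and 3, against 46.4, 38.9 and 43.3 CPM across the same cKO replicates. Its groups did not overlap, and its log2 fold change of 0.37 had an adjusted p of 0.159 with the block in limma and 0.0349 in DESeq2.

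**Figure D4:**
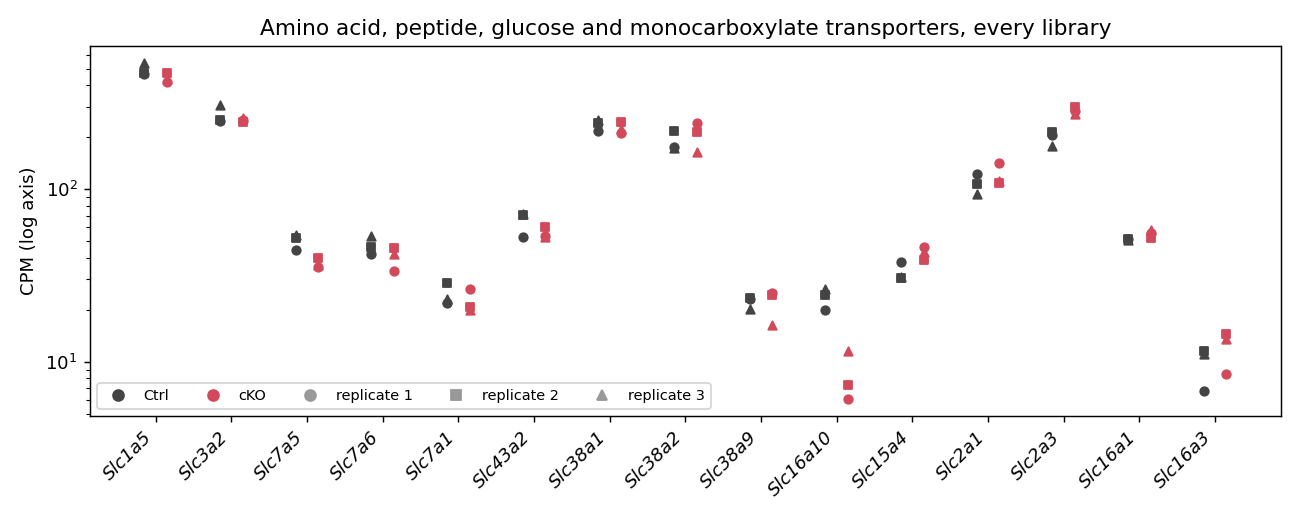
CPM (log axis) of 15 carriers of amino acids, peptides, glucose and monocarboxylates in each Ctrl (grey) and cKO (red) library, with symbols for the replicate. Slc16a10, Slc7a5, Slc15a4, Slc2a3 and Slc16a1 show groups that do not overlap, and only Slc16a10 and Slc2a3 passed with the replicate block.

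Sugar and monocarboxylate carriers had 12 members, 6 higher and 6 lower (median log2 fold change 0.048), and Slc2a3 was the one that passed with the block. Without replicate 3, 9 were higher and the median was 0.099. Slc50a1, a small sugar transporter, ranked 4 among all members per kilobase of exon, at 151 ± 16.2 CPM in Ctrl and 142 ± 14.1 in cKO. The lactate and pyruvate carrier Slc16a1 (MCT1) was at 51.2 ± 0.517 CPM in Ctrl and 55.4 ± 3.22 in cKO, without overlap (log2 fold change 0.11, adjusted p 0.743 with the block). Slc16a3 (MCT4), known for lactate export, was at 9.82 ± 2.67 and 12.1 ± 3.23 CPM, and was higher in cKO in each same-numbered pair (0.29, 0.30 and 0.26) with an adjusted p of 0.519 with the block.

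Mitochondrial carriers of the Slc25 family were the largest class, with 36 members, 27 lower and 9 higher and a median of -0.088. Under TMM scaling, and likewise without replicate 3, 20 were lower and 16 higher, with medians of -0.046 and -0.045. Slc25a4 was the one that passed with the block. The phosphate carrier Slc25a3 was at 249.9 ± 13.0 CPM in Ctrl and 234 ± 26.2 in cKO, and the oxoglutarate carrier Slc25a11 at 183 ± 21.8 and 181 ± 11.1 CPM, both with overlapping groups. Slc25a38, a glycine carrier needed for heme synthesis, was at 46.8, 44.6 and 60.9 CPM across Ctrl replicates 1, 2 and 3, against 37.1, 29.7 and 36.9 CPM across the same cKO replicates. Its groups did not overlap, and its limma adjusted p with the block was 0.0507, just short of the threshold. The citrate carrier Slc25a1 was also without overlap, at 66.4 ± 5.66 CPM in Ctrl and 53.2 ± 1.503 in cKO (log2 fold change -0.31, adjusted p 0.217 with the block). These 2 genes, like Slc35f2 and the other genes outside the rule for named genes, were chosen after their values were seen.

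Carriers of inorganic ions, with the exchangers that set cell pH, had 25 members, including Slc9a3r1, which is no carrier. Of the 25, 12 were higher and 13 lower, and Slc26a11 was the one that passed with the block. The class median was -0.037, and 0.020 without replicate 3. Magnesium transporter genes of the Slc41 family did not pass in limma on the CPM values of all 6 libraries, with or without the block. Slc41a3 was at 21.4, 21.3 and 26.5 CPM across Ctrl replicates 1, 2 and 3, against 14.2, 15.4 and 15.7 CPM across the same cKO replicates, without overlap (log2 fold change -0.57, limma adjusted p 0.0786 with the block). Slc41a2 was at 30.7, 25.8 and 19.9 CPM across Ctrl replicates 1, 2 and 3, against 23.4, 14.2 and 7.24 CPM across the same cKO replicates, with overlapping groups but a lower cKO value in each pair (log2 fold change -0.85, adjusted p 0.0601 with the block). It passed in edgeR with the block (adjusted p 0.0289), in limma with TMM scaling and the block, and in limma on replicates 1 and 2 with the block. Slc41a3 passed in DESeq2 (adjusted p 0.0202). The third of this family, Slc41a1, had a log2 fold change of 0.13. The sodium-potassium-chloride cotransporter Slc12a2 was at 10.03 ± 2.91 CPM in Ctrl and 11.1 ± 4.59 in cKO, and the phosphate carrier Slc20a1 at 117 ± 2.40 and 120.1 ± 26.7 CPM. The scaffold gene Slc9a3r1 ranked 2 among all members per kilobase of exon, at 458 ± 14.8 and 468 ± 59.4 CPM.

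Metal carriers had 19 members, 9 higher and 10 lower, with a median of -0.051 (-0.047 with 12 lower without replicate 3), and none passed with or without the block. Slc11a2 encodes the iron importer DMT1 and was at 129, 134 and 148 CPM across Ctrl replicates 1, 2 and 3, against 151, 149 and 167 CPM across the same cKO replicates. Its groups did not overlap, and the log2 fold change was 0.18 (adjusted p 0.387 with the block). The zinc importer Slc39a6 was at 108 ± 11.1 and 109 ± 11.8 CPM, and the zinc exporter Slc30a1 at 9.90 ± 1.09 and 12.8 ± 2.99 CPM (adjusted p 0.511 with the block). Slc39a13, a zinc transporter of the secretory pathway, had the lowest fold change of this class. It was at 24.3, 22.2 and 22.9 CPM across Ctrl replicates 1, 2 and 3, against 15.2, 18.9 and 9.002 CPM across the same cKO replicates, without overlap (log2 fold change -0.71, adjusted p 0.145 with the block). Slc40a1, the iron exporter ferroportin, was not among the members.

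Carriers of nucleosides, vitamins and organic ions had 18 members, 13 lower and 5 higher, with a median of -0.14 (-0.10 with 11 lower under TMM scaling, and -0.028 without replicate 3). Slc44a2, a choline transporter-like gene, had the highest mean CPM of all members and ranked 6 per kilobase of exon. It was at 759, 762 and 749.8 CPM across Ctrl replicates 1, 2 and 3, against 673, 739 and 600.0 CPM across the same cKO replicates, so that groups did not overlap (log2 fold change -0.18, limma adjusted p 0.387 with the block). Slc28a2, a sodium-coupled nucleoside carrier, was at 170.1, 182 and 194 CPM across Ctrl replicates 1, 2 and 3, against 226, 267 and 213 CPM across the same cKO replicates. All cKO libraries were above all Ctrl libraries, the log2 difference of the means was 0.37, and the adjusted p in limma was 0.111 with the block. In replicates 1 and 2 alone it was 0.48 with an adjusted p of 0.0466. The folate carrier Slc19a1 was at 55.8 ± 2.71 CPM in Ctrl and 44.2 ± 4.94 in cKO, without overlap (log2 fold change -0.34, adjusted p 0.172 with the block). The nucleoside carrier Slc29a1 was at 98.4 ± 4.98 and 102 ± 14.4 CPM, and the purine base carrier Slc43a3 at 11.3 ± 0.569 and 8.96 ± 3.28 CPM, where cKO replicate 1 stood lower at 5.20 CPM.

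Nucleotide sugar and other carriers of the secretory pathway had 25 members, 15 higher and 10 lower (median log2 fold change 0.033). Under TMM scaling 17 were higher and 8 lower, with a median of 0.077. Without replicate 3 there were 12 higher and 13 lower, and the median was -0.012. None passed with or without the block. Slc35e1 ranked 8 among all members per kilobase of exon, at 237 ± 22.1 CPM in Ctrl and 259.6 ± 44.9 in cKO. Slc35f3 had the highest log2 fold change of the members, 0.80, at 5.17, 4.65 and 3.98 CPM across Ctrl replicates 1, 2 and 3, against 15.2, 6.99 and 6.12 CPM across the same cKO replicates. Groups did not overlap, but cKO replicate 1 was far above the others, and the adjusted p was 0.127 with the block. The remaining 9 members, carriers of lipids and others, had a median of -0.18 (-0.064 without replicate 3) and none passed. Slc17a9, a vesicular nucleotide transporter, had the lowest fold change among them, at 37.6 ± 6.61 CPM in Ctrl and 26.7 ± 10.3 in cKO (log2 fold change -0.54, adjusted p 0.121 with the block).

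Levels of members spanned a wide range. The mean over 6 libraries ran from 5.07 to 714 CPM with a median of 37.9 CPM, and 29 members were at 100 CPM or more while 19 were under 10 CPM. Members together held between 10987 and 11514 CPM in Ctrl and between 10708 and 11210 CPM in cKO, so that the ranges overlapped. Spread among Ctrl libraries was smaller at higher levels: the median coefficient of variation was 20.5% for the 19 members under 10 CPM, 11.7% for the 117 members from 10 to 100 CPM and 7.92% for the 29 above. Just inside the threshold lay Slc5a11 (mean 5.07 CPM) and the cystine carrier Slc7a11 (5.26 CPM), and just outside it Slc2a13 (4.80 CPM) and Slc4a4 (4.79 CPM).

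Replicate 3 was far lower than replicates 1 and 2 for a few members, but smaller shifts ran through many. Over the 165 members, the shift of replicate 3 from the mean of replicates 1 and 2 correlated at 0.802 between the groups. In Ctrl, this shift was larger in size than the log2 fold change between groups for 102 members. A single library set against the mean of 2 varies more than a difference between means of 3, and no share over all genes was taken. This count therefore cannot set replicate 3 apart from ordinary spread. In 5 members the value on the log2(CPM + 1) scale was lower by at least 1 in replicate 3 of both groups, 3.03% against 5.76% of the 10141 genes at that level. Slc1a3, a glutamate carrier, was at 11.6 and 7.77 CPM in Ctrl replicates 1 and 2 and at 10.4 and 8.64 CPM in cKO, but at 0 in both replicate 3 libraries, where 3 reads would be 0.0567 and 0.0441 CPM. Slc38a11 was at 10.5 to 14.6 CPM in replicates 1 and 2 and at 0.132 (Ctrl) and 0.0881 CPM (cKO) in replicate 3, and Slc7a11 at 5.52 to 9.26 against 0.208 and 0.0147 CPM. Slc18a2 and Slc5a3 were the other two. Their mean over 6 libraries lies between these levels.

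**Figure D5:**
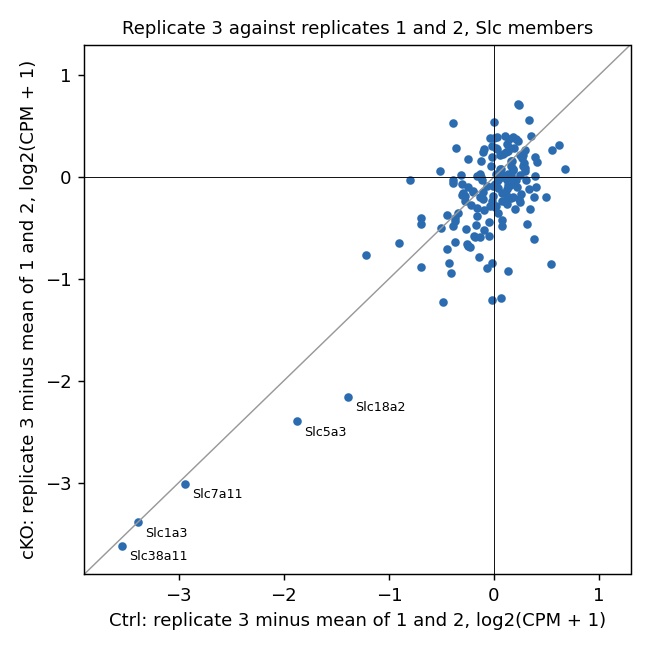
Replicate 3 minus the mean of replicates 1 and 2 on the log2(CPM + 1) scale, in Ctrl (horizontal axis) and cKO (vertical axis), for the 165 members, with the line of equal values in grey. The 5 named members are lower by at least 1 in replicate 3 of both groups.

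Other transport genes were read from lists. These lists were chosen with earlier results of these data known, so their counts are a description only. Beside the counts stand the shares of all tested genes, 0.663% called without the block and 2.87% with it. Among 15 genes for partner subunits and regulators of solute carriers, 1 passed without the block and 2 with it, all higher. Emb encodes embigin, a partner of monocarboxylate carriers, and rose from 2.42 ± 0.945 to 16.05 ± 4.32 CPM (log2 fold change 2.33), with an adjusted p in limma of 0.0300 without the block and 0.00160 with it. Bsg, which encodes the main partner of Slc16a1 and Slc16a3, was at 183 ± 19.2 and 187 ± 50.8 CPM. Stk39 encodes the kinase SPAK, which phosphorylates chloride cotransporters of the Slc12 family. It rose with the block from 37.2 ± 7.04 to 60.1 ± 11.7 CPM (adjusted p 0.00750 with it and 0.366 without it). Of 25 tested ABC transporter genes, none passed without the block and 2 rose with it, where 1.24% of tested genes rose. Abcb1a, a drug efflux pump, was at 91.4, 108 and 74.6 CPM across Ctrl replicates 1, 2 and 3, against 203, 209.7 and 143 CPM across the same cKO replicates, without overlap (log2 fold change 1.01, adjusted p 0.000429 with the block and 0.122 without it). The other was Abca3, from 20.2 ± 5.44 to 35.03 ± 12.5 CPM (adjusted p 0.0214 with the block). None of 18 zinc and iron handling genes passed in either fit. Of 37 genes for amino acid sensing and the amino acid stress response, none passed without the block and 1 fell with it: Rragd, which encodes a Rag GTPase of the mTORC1 pathway, from 13.7 ± 2.53 to 5.58 ± 2.14 CPM (log2 fold change -1.20, adjusted p 0.0164 with the block).

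Counting of the members can be shared with other genes. In GENCODE release M21, 12 members had at least 10% of their exon bases within exons of another gene, the highest being Slc39a7 with 80.7%, and no strand-specific counting is stated. Slc20a1 (13.1%) is among the members described above, and none of the 5 members that passed with the block is among the 12.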

How the data were processed

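RNA from thymic iNKT1 cells was sequenced in 3 Ctrl and 3 cKO libraries, with reads of 75 bases per the labels. The deposited table holds CPM values per library. Per the submitters' processing notes, Trimmomatic 0.33, STAR 2.5.2, HTSeq 0.6.1, edgeR and mm10 were used; their settings are not given in the sources used here. The authors' own comparison, per the file headers, gives each gene a log2 fold change and mean, a likelihood-ratio score, and raw and adjusted p-values. Its columns named WT and KO were taken as Ctrl and cKO by replicate number and tissue.

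Values were tested as log2(CPM + 1) with limma 3.58.1 (group as the only term, trend and robust moderation) on the 15691 genes whose mean reached 1 CPM, with p-values adjusted by Benjamini-Hochberg over all of them and a threshold of 0.05. Fold changes on this scale are understated for low genes. The replicate number served as a block in a second fit: deviations of same-numbered libraries from their group means correlated at 0.855, 0.687 and 0.924 over genes, which met the limit of 0.1 set for taking them as pairs. Ctrl 2 with cKO 1 (0.718) and Ctrl 1 with cKO 2 (0.578) also met this limit, so numbers 1 and 2 are not told apart by this check. Because deviations are taken from group means, a shift shared by both replicate 3 libraries also makes the remaining libraries deviate together. Meeting the limit therefore does not show that numbers 1 and 2 are pairs, and the labels name no shared animal or day. All CPM values were whole multiples of the value of 1 read (100% within 0.01 read), and edgeR 4.0.16 and DESeq2 1.42.0 were run on these reads. Counting error only is covered by library depth.

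Exon lengths are unions of GENCODE M21 exons; all 165 members were found there, overlapping the deposited position, 110 with identical start and end. The members and lists were chosen with earlier results of these data known. Named were members past the threshold in either fit, the 8 highest per kilobase of exon, 24 transporters known in T cells where they met the level, and those next to the 5 CPM level; 1 of these is not reported here. The scripts were tested on simulated data.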

Additional observations from a re-analysis of the deposited data

How the results depend on the processing

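The count of genes called over all tested genes was 104, and moved to 451 with the replicate block, 513 under TMM scaling with the replicate block, 291 in replicates 1 and 2, 943 in replicates 1 and 2 with the replicate block, 41 under edgeR's quasi-likelihood test, 469 under it with the replicate block and 552 under DESeq2. Leaving out one library at a time gave 14 to 85. Against 0 members called higher, the replicate block gave 1, TMM scaling plus the block 1, and there were 2 in replicates 1 and 2, 6 there with the block, 2 under edgeR with the block and 6 under DESeq2. Against 0 called lower, the replicate block gave 4, TMM scaling plus the block 5 and a fit on genes from 5 CPM upward 1, and there were 3 in replicates 1 and 2, 10 there with the block, 5 under edgeR with the block and 5 under DESeq2. Calls over the whole table rose in these settings too. In both directions, replicates 1 and 2 with the block called 9.70% of members, beside 943 of 15691 tested genes. TMM scaling plus the block called 3.64%, beside 513 of 15691. Shares were 3.03% beside 1.85% in replicates 1 and 2, 4.24% beside 2.99% under edgeR with the block and 6.67% beside 3.52% under DESeq2. In all of these the tested genes are not matched to the members in level. Leaving out one library gave 0 higher members in each fit and from 0 to 1 lower, the 1 being Slc16a10 without cKO replicate 3. A limit of 1 or 10 CPM for members changed neither count, also with the replicate block, a reading chosen after seeing the data.

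Slc16a10, Slc2a3, Slc25a4 and Slc26a11 kept their direction under all 18 alternatives, including each left-out library, and passed in 8, 6, 6 and 6 of them; Slco3a1 kept it too and passed in 2. The median log2 fold change of the members stayed between -0.081 and -0.012. The cause of these shifts was not tested.

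Of the 33 named members, 12 changed sign under some alternative, and in limma none of these 12 passed in either fit. Without replicate 3, with or without the replicate block, log2 fold changes turned to 0.0383 (Slc25a11), 0.0314 (Slc25a3), -0.0206 (Slc29a1), 0.0824 (Slc38a9), -0.028 (Slc39a6), 0.0819 (Slc50a1) and -0.0831 (Slc9a3r1). Slc25a11 also turned to 0.0347 under TMM scaling with or without the block, 0.0341 under edgeR, 0.0349 under edgeR with the block and 0.0389 under DESeq2, and Slc38a9 to 0.00873 under edgeR and 0.0127 under DESeq2. Leaving out one library at a time gave log2 fold changes of -0.179 to 0.389 (Slc12a2), -0.118 to 0.204 (Slc20a1), -0.0727 to 0.0857 (Slc25a11), -0.0606 to 0.136 (Slc29a1), -0.00989 to 0.232 (Slc35e1) and -0.15 to 0.147 (Slc38a9). For the rest that turned in such a fit they ran from -0.0671 to 0.097 (Slc39a6), -0.144 to 0.0113 (Slc3a2), -0.144 to 0.00146 (Slc50a1), -1.18 to 0.802 (Slc7a11) and -0.0767 to 0.0907 (Slc9a3r1).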

Other observations

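The other 122 protein-coding Slc genes of the table had a mean under 5 CPM. Of these, the 87 that reached 1 CPM were tested, and none passed an adjusted p of 0.05 in limma with or without the replicate block. Both replicate 3 libraries listed 72 of the 122 at 0, while no library of replicates 1 and 2 listed any of them at 0.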
